A study of Rattus norvegicus with 8 samples.

Results

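The effect of eugenol on rat cardiomyocytes held under ischemia was described from the 270 genes that the authors' deposited table of ischemia with eugenol against ischemia with DMSO lists, out of 9025 genes that appear in any of the 5 deposited tables. The table lists a gene when its unadjusted p in this comparison was under 0.05, so the eugenol difference under ischemia is what chose these genes, and it is given below as a description. Primary ventricular cardiomyocytes came from Harlan Sprague-Dawley rats aged 2 to 3 days and were kept for 24 h in 1 of 4 conditions, each with 2 libraries of total RNA: normoxia with DMSO, normoxia with 10 µM eugenol, ischemia with DMSO, and ischemia with 10 µM eugenol. Ischemia meant an atmosphere of 1% oxygen and 5% carbon dioxide. The label does not say whether the medium of the ischemic dishes lacked glucose or serum, and it names DMSO, the solvent, as the treatment of the control dishes. These are freshly isolated neonatal cells, not adult heart muscle, and the isolation can carry other heart cells along.

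The read totals behind the 4 ischemia libraries were 17744920 and 15937751 with DMSO, and 16007142 and 16703542 with eugenol. Levels below are reads per 1000000 of these totals (RPM), which compare one gene across libraries and not one gene with another. Whether the 2 libraries of a group were made from separate cultures is not stated. The p-values here set a difference between groups against the scatter within groups, which may be only technical. An exact permutation test of 2 libraries against 2 has a two-sided p of at least 0.333. Cardiomyocyte markers were high in all 4 ischemia libraries: the 10 of 12 with counts summed to 25130 and 27090 RPM with DMSO and to 24400 and 22340 RPM with eugenol. Markers of other cells were present too. Those of fibroblasts (11 of 15 with counts) summed to 11370 and 11060 RPM with DMSO and 9649 and 10610 RPM with eugenol, and those of smooth muscle (8 of 9) to 1907 and 1771 against 1650 and 1623 RPM. Endothelial markers (7 of 13) summed to between 80.7 and 111.7 RPM in the 4 libraries, macrophage markers (10 of 14) to between 38.9 and 46.8 RPM, and none of the 8 erythroid markers had ischemia counts under the names searched. The hemoglobin gene Hba1, not among those names, was itself listed lower with eugenol (log2 fold change -3.31, unadjusted p 0.0121 in the authors' deposited table).

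Eugenol is the phenolic compound of clove oil, and phenols of this kind are studied as antioxidants. In many cells electrophilic or oxidising compounds release the transcription factor NRF2 from its inhibitor KEAP1, and NRF2 then binds antioxidant response elements at genes of glutathione use and NADPH supply. Hypoxia acts through another factor, HIF, on glycolysis and angiogenic genes, and a shortage of folding capacity in the endoplasmic reticulum (ER) raises chaperones through ER stress elements in their promoters. Fibroblast collagens form the matrix between heart muscle cells, and the sarcomere proteins form the contractile filaments within them.

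Promoters are shown for the antioxidant and ER genes on the list because those sets have well known binding elements. In the RefSeq promoter table (build GRCr8), 156 of the listed genes had a match by symbol, and the 250 bases before each start were searched on both strands. The window of Gstp1, a glutathione transferase with a smaller deposited p than any other NRF2 target on the list, holds the core TGACNNNGC of the antioxidant response element beginning 61 bases before the start; Gstp1 was chosen for display after its values were seen. The windows of Hspa5, Calr and Creld2 hold the ER stress element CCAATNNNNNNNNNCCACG, which was searched only after the values were seen; it begins 43, 232 and 145 bases before the start, on the reverse strand in Calr and Creld2. Capitals mark these matches.
Gstp1 (chr1:210769733-210769792, minus strand): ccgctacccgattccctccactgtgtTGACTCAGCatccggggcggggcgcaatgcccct
Hspa5 (chr3:38452947-38453006, plus strand): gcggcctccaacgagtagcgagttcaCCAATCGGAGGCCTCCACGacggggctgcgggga
Calr (chr19:40213117-40213176, plus strand): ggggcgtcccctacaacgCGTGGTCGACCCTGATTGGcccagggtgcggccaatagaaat
Creld2 (chr7:121789213-121789272, plus strand): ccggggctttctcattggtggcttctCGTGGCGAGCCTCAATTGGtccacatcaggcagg

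Of the 270 listed genes, 159 were higher and 111 lower with eugenol. The libraries of the 2 groups did not overlap in 247 of the 270, which this same difference chose, and in 30.8% of all 7176 genes with ischemia counts. The authors' adjusted p-values were made over 18972 genes, so the listed genes are 1.42% of them at an unadjusted p under 0.05, and 23 genes, 0.121%, passed an adjusted p under 0.05, with 13 higher and 10 lower. An edgeR quasi-likelihood refit of the counts of the same 4 libraries, with Benjamini-Hochberg adjustment over the same number of genes, called 11 of 7176 genes, 0.153%, with 6 higher and 5 lower, and all 11 are among the 23. These 11 are Echs1, Clip3, Pdcd5, LOC100910414, both entries of Hiat1, Aldh18a1, AABR07024382.1, Hnrnpc, AABR07066510.1 and Ankrd24. The rest of the 23 passed only the authors' test. Among them are Qk, Lemd2 and Hmgb3, with adjusted p-values of 0.0509, 0.0882 and 0.333 by edgeR. At an unadjusted p under 0.05 the refit held 369 genes, 5.14%. The refit's count hung on single libraries. It was 257 (169 higher, 88 lower) without the first eugenol library, 77 without the second, and 35 and 31 without the first and second DMSO library, and all 11 genes were called in each of these fits except for 1 in the fit without the first DMSO library. The lone eugenol library is then assumed to vary as the DMSO pair does.

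The listed genes were split at a 2-fold change, taken as a log2 fold change of 1 after rounding to 2 decimals. AABR07028886.3, at 1.994-fold, thus counts as 2-fold. With few reads or with libraries far apart, only a large change can reach the listing p. The contrast below therefore follows in part from the listing. A change of at least 2-fold was listed for 104 genes, 59 higher and 45 lower, and the median of their higher group mean was 2.81 RPM. In 43 of these 104 genes, the libraries of 1 group differed by more than 4 times, and 52 carried no gene symbol but a locus or contig name. The other 166 genes, 100 higher and 66 lower, changed by less than 2-fold from a median higher mean of 51.8 RPM, none of them had a pair of libraries more than 4 times apart, and 17 carried no symbol. Locus or contig names made up 25.6% of the listed genes and 9.03% of all 7176 genes with ischemia counts. In 10 listed genes, among them Brms1, Faah and Palm3, 1 group was at 0 reads in both libraries, and no fold is given for them.

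**Figure D1:**
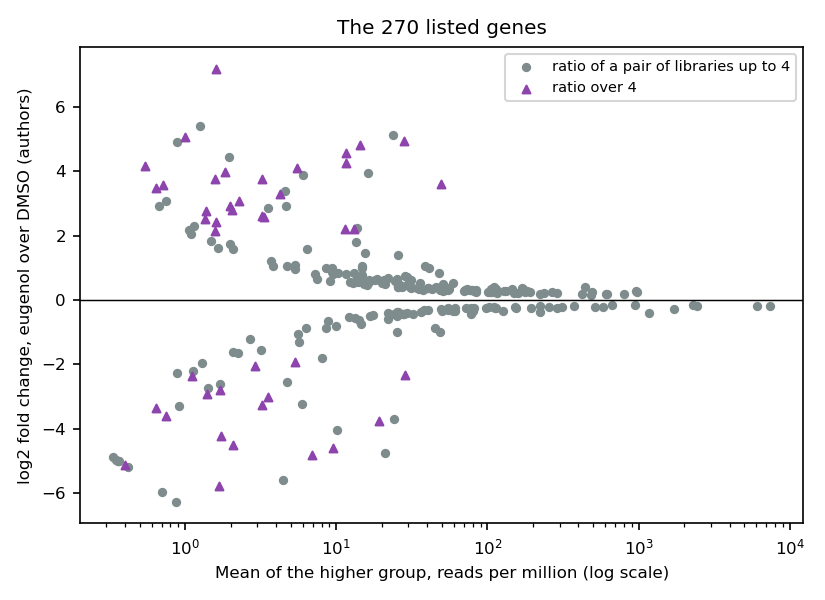
Authors' log2 fold change of eugenol over DMSO under ischemia (vertical axis) against the mean of the higher group in RPM on a log axis, for the 270 listed genes. Triangles mark the 43 genes with libraries of 1 group more than 4 times apart. They lie at low levels and large folds, which the listing p in part requires, while the high genes change little.

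The gene with the smallest p was Echs1, the enoyl-CoA hydratase of mitochondrial fatty acid oxidation. It had 12 and 11 reads with DMSO and 424 and 351 reads with eugenol, a log2 fold change of 5.13 with an adjusted p of 7.2e-37 in the authors' deposited table. The DMSO libraries were low and both eugenol libraries were far above them. In normoxia this entry of Echs1 had 20 and 13 reads with DMSO and 91 and 14 with eugenol. Only the first eugenol library was high there for this entry, and sums with a second entry are given below. No other of the 16 measured genes of fatty acid oxidation was listed, and the median log2 change of that list was 0 to the second decimal.

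Proline is made by way of Aldh18a1, the mitochondrial pyrroline-5-carboxylate synthase. Aldh18a1 had 8 and 6 reads with DMSO and 89 and 109 with eugenol (log2 fold change 3.87, adjusted p 2.9e-08 in the authors' deposited table). Normoxia counts were uneven within each group, 79 and 14 with DMSO and 13 and 58 with eugenol. Qk, an RNA-binding protein that steers splicing in muscle, had 18.0 and 19.3 RPM with DMSO and 31.8 and 45.0 RPM with eugenol (1.05, adjusted p 0.000102). Lemd2, a protein of the inner nuclear membrane, had 7.78 and 6.59 against 15.4 and 14.3 RPM (1.06, adjusted p 0.0253). In both genes the 2 groups were apart; the normoxia log2 changes of the edgeR fit were -0.01 for Qk and 1.09 for Lemd2.

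Hnrnpc, a nuclear protein that packages new transcripts, was lower with eugenol. It had 48.2 and 48.4 RPM with DMSO and 27.8 and 20.9 RPM with eugenol (log2 fold change -0.98, adjusted p 1.28e-05). Hmgb3, a chromatin protein, had 5.75 and 10.2 RPM with DMSO and 3.19 and 1.38 RPM with eugenol (-1.80, adjusted p 0.0455). Its normoxia levels went the other way, 4.89 and 11.1 RPM with DMSO and 17.6 and 18.5 RPM with eugenol. Clip3, a linker protein of the trans-Golgi network, had 545 and 280 reads with DMSO and 28 and 32 with eugenol (-3.71, adjusted p 1.22e-25), but only 11 and 20 reads in normoxia with DMSO.

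Ankrd24, a protein with ankyrin repeats, had 7 and 8 reads with DMSO and 68 and 83 with eugenol (3.38, adjusted p 3.02e-05), against 52 and 43 in normoxia with DMSO. The ischemia DMSO libraries were the low ones of the 3 groups with counts. Abhd10, a mitochondrial thioesterase, had 10 and 11 reads against 104 and 48 (2.91, adjusted p 0.00168). Of the 23 called genes, 10 carry locus or contig names. Among these the files describe LOC100911485 as mitofusin-2-like (53.5 and 37.1 against 22.2 and 26.7 RPM, adjusted p 0.00398) and LOC103694874 as stromelysin-3, with 4 and 12 against 53 and 62 reads (adjusted p 0.0144).

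**Figure D2:**
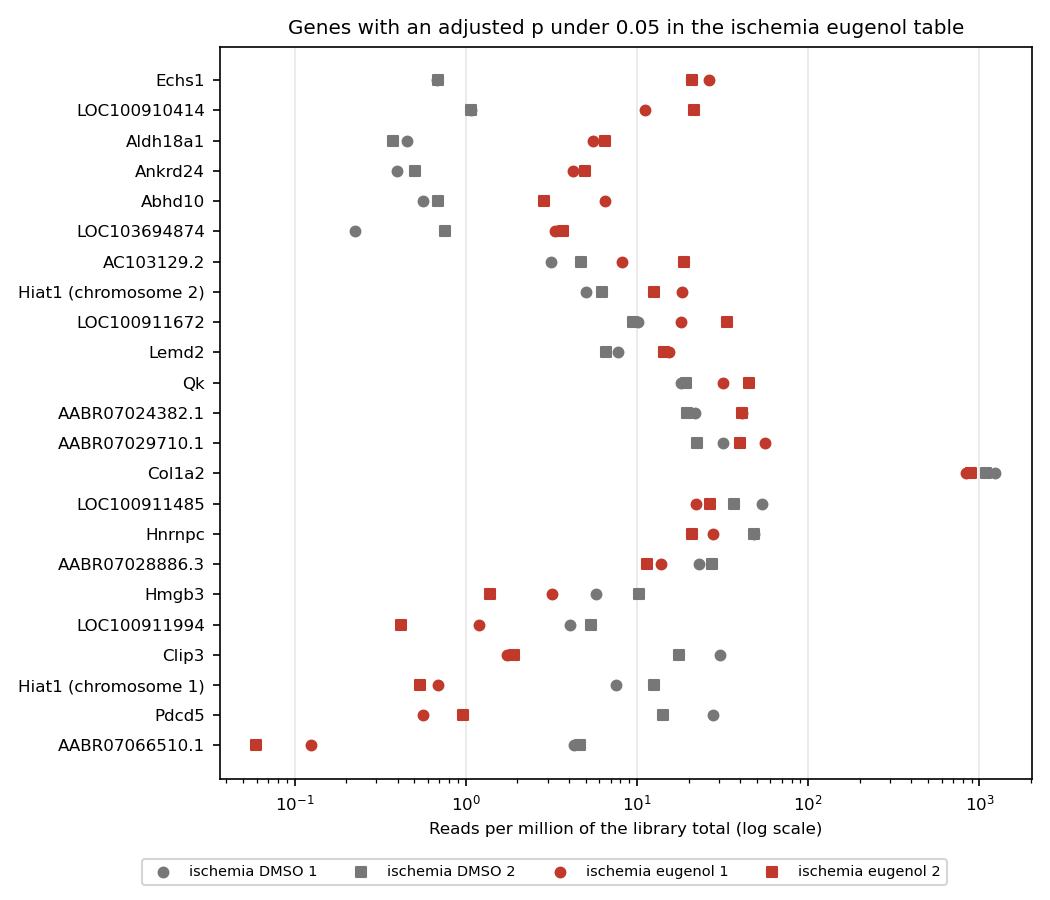
RPM (log axis) of the 23 genes with an adjusted p under 0.05 in the authors' table, 1 point per ischemia library, grey for DMSO and red for eugenol, ordered by fold change. The 2 groups do not overlap in any of the 23 genes; Col1a2, near 1000 RPM, is the only called gene above 100 RPM.

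Several listed entries share a name or a protein description with another entry, here called a copy. Reads may be split between such entries, so their values are uncertain. The pairs were found after the values were seen, by a shared name or a shared protein description in the files, and their sequences were not compared. Hiat1, a putative membrane transporter, is called in both directions. Its entry on chromosome 2 had 89 and 99 reads with DMSO and 293 and 211 with eugenol, and its entry on chromosome 1 had 134 and 200 against 11 and 9. The sums, 223 and 299 against 304 and 220, differed by a log2 of 0.04 ± 0.219 (SE), with an adjusted p of 1 by edgeR with Benjamini-Hochberg adjustment.

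Pdcd5, a programmed cell death protein, had 490 and 225 reads with DMSO and 9 and 16 with eugenol. Its copy LOC100912106 had 6 and 11 reads with DMSO and 450 and 13 with eugenol, so the sum was high in 3 of the 4 libraries and gave a log2 change of -0.50 with an adjusted p of 1 in the edgeR fit. Tmco3 was high only in the second eugenol library and its copy AC111257.1 only in the first DMSO library. Their sums were 117 and 16 with DMSO and 18 and 104 with eugenol. For Echs1 the sum with its copy LOC100911186 still differed, 24 and 16 against 780 and 368 reads (4.89 ± 0.378, adjusted p 0.000207). The normoxia sums of these entries were 32 and 21 with DMSO and 107 and 345 with eugenol. The copy held 16 and 331 of those eugenol reads, and the normoxia sums were not tested. Clip3 has a second entry of its name on chromosome 1, with 13 and 199 reads in the eugenol libraries and no ischemia DMSO counts, so no sum could be formed. Hmgb3 likewise has a second entry, on chromosome 14, with 5 and 5 reads in the ischemia DMSO libraries and no ischemia eugenol counts, and the values of both genes are uncertain for this reason. With copies summed, 8 genes were called by edgeR, all 8 among the 11. LOC100911672, described as atrophin-1-like, was not called when summed with Atn1 (0.83, adjusted p 0.717).

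**Figure D3:**
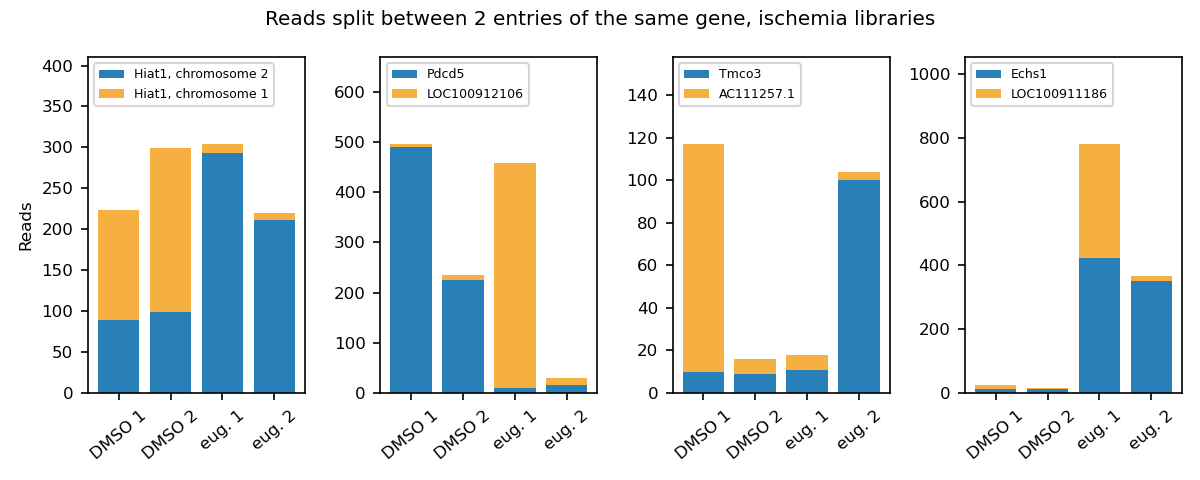
Reads per ischemia library (vertical axis, each panel on its own scale from 0) of 4 pairs of entries that share a name or a protein description, stacked. The Hiat1 totals are alike in the 2 groups while the share of each entry changes, the Pdcd5 and Tmco3 totals vary within groups, and the Echs1 totals are high only in the eugenol libraries.

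Matrix genes carry the called change with the largest reads. Col1a2, a chain of type I collagen, had 1233 and 1092 RPM with DMSO and 835 and 898 RPM with eugenol (log2 fold change -0.41, adjusted p 0.00268 in the authors' deposited table; -0.42 ± 0.0861 with an adjusted p of 0.267 in the edgeR fit). In normoxia Col1a2 stood at 1658 and 1392 RPM with DMSO and at 1927 and 2455 RPM with eugenol, so the direction differed between the oxygen levels. The difference of the effects was -0.95 on the log2 scale, with an adjusted p of 0.143 by the edgeR interaction test, and by DESeq2's Wald test it passed.

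Col3a1 was the other gene of the collagen and matrix list among the 270, and further matrix genes outside that list, named after their values were seen, were listed in both directions. None of them passed an adjusted p of 0.05. Col3a1, the chain of type III collagen, had 1757 and 1663 against 1423 and 1389 RPM. Eln, elastin, had 231.5 and 210.9 against 177.8 and 161.0 RPM, and Col6a2, a type VI collagen chain, had 381.5 and 360.0 against 325.8 and 321.7 RPM. All 3 were lower. Tgfb3, a growth factor that acts on fibroblasts, had 84.6 and 72.5 against 63.5 and 60.4 RPM. Lrrc32, which holds latent TGF-beta at the cell surface, had 55.6 and 54.5 against 41.7 and 46.4 RPM. Higher were Mgp and Sulf1: Mgp, an inhibitor of calcification, had 122.1 and 107.5 against 136.6 and 154.7 RPM, and Sulf1, which trims heparan sulfate, had 87.0 and 86.4 against 90.3 and 116.1 RPM.

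Of the 14 genes of the collagen and matrix list with ischemia counts, 2 were listed, both lower, where 3.76% of all genes with ischemia counts were listed, and 1 passed the authors' adjusted test. Over the 14 genes 6 were higher and 8 lower, with a median log2 change of -0.09 against -0.01 over all 7176 genes. The median was 0.01 without the first eugenol library and -0.17 without the second. The summed markers of fibroblasts and of smooth muscle given above were lower in both eugenol libraries than in either DMSO library. The fibroblast list shares Col1a1, Col1a2 and Col3a1 with the matrix list, and the part of the markers in the matrix values was not tested. Fewer cells of a type and less RNA per cell cannot be told apart in these bulk libraries. Of the 8 smooth muscle markers with counts, 6 were lower and 2 higher, with a median log2 change of -0.16, and 2 were listed, both lower, against the same share of 3.76%. Pdgfrb, the receptor for platelet-derived growth factor on mural cells and fibroblasts, had 525.1 and 506.7 against 481.1 and 407.0 RPM, and Acta2, smooth muscle actin, had 309.3 and 271.6 against 227.7 and 259.3 RPM.

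NRF2 targets made up the list with the highest share of listed genes, 6 of 19 with ischemia counts (31.6%), where 3.76% of all genes with ischemia counts were listed. Of these 5 were higher and 1 lower, and none passed the adjusted test. Gstp1 had 347.4 and 321.4 RPM with DMSO and 400.6 and 480.5 RPM with eugenol (log2 fold change 0.41, adjusted p 0.0513 in the authors' deposited table). Its normoxia levels were 92.7 and 92.6 RPM with DMSO and 103.3 and 98.4 RPM with eugenol, with no overlap between groups and a log2 change of 0.12.

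Glutathione and NADPH supply were represented by 3 further genes. Slc7a11, the cystine importer that feeds glutathione synthesis, had 23.0 and 19.4 RPM with DMSO and 24.6 and 35.9 RPM with eugenol. G6pdx, glucose-6-phosphate dehydrogenase, had 105.4 and 106.7 against 115.3 and 141.9 RPM, and Tkt, transketolase, had 702.3 and 703.9 against 777.8 and 821.4 RPM. In all 3 the second eugenol library was the highest of the 4. Nqo1, the quinone reductase often used as a readout of NRF2, had 90.9 and 92.1 against 96.3 and 119.2 RPM under ischemia, and 30.2 and 28.5 against 47.1 and 36.4 RPM in normoxia. Osgin1, an oxidative stress induced growth inhibitor, went the other way, with 117.2 and 106.8 against 101.8 and 86.3 RPM.

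Over the 19 genes of the NRF2 list, listed or not, 11 were higher and 8 lower with a median log2 change of 0.03, and the median was -0.04 without the first eugenol library and -0.04 without the second DMSO library. Hmox1, heme oxygenase, which degrades heme, was not listed and had 1581 and 1423 against 1456 and 1230 RPM (-0.16 ± 0.0948). Gclc and Gclm, the subunits of the enzyme that starts glutathione synthesis, had log2 changes of 0.05 and -0.12, and Txnrd1, thioredoxin reductase, 0.06. Detoxifying genes outside that list that were listed higher, named after their values were seen, were Akr1b8, an aldo-keto reductase with 90.1 and 80.4 against 104.8 and 117.5 RPM, Gsta1 with 17.9 and 14.5 against 22.4 and 28.0 RPM, and Mgst1 with 34.5 and 33.0 against 40.2 and 45.4 RPM. Gsta1 and Mgst1 are glutathione transferases. None of the 15 other antioxidant genes and none of the 7 aryl hydrocarbon receptor and xenobiotic genes with counts was listed.

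The promoter match seen in Gstp1 was the only one among the 5 listed NRF2 targets with a promoter in the table. TGACNNNGC stood in 10 of the promoters of 91 higher genes, 7 of those of 65 lower genes, 13.3% of 5380 promoters of genes with ischemia counts and 10.1% of all 33469 promoters. The hypoxia core ACGTG stood in 13.2% of the higher, 32.3% of the lower and 22.8% of the measured genes' promoters, and GCGTG in 47.3%, 35.4% and 45.5%. These shares describe letters in a window of 250 bases and are not binding sites.

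ER chaperones on the list were higher with eugenol. Hspa5, the major chaperone of the ER lumen, had 823.4 and 811.2 RPM with DMSO and 954.8 and 984.8 RPM with eugenol (log2 fold change 0.26, adjusted p 0.426 in the authors' deposited table). Calr, a calcium-binding chaperone, had 534.1 and 542.3 against 571.2 and 640.4 RPM, and Creld2, an ER protein of disulfide exchange, had 14.3 and 15.7 against 18.6 and 23.3 RPM. Chac1, which degrades glutathione and is switched on by ATF4, had 10.8 and 6.65 against 11.5 and 18.3 RPM. None of the 4 passed the adjusted test.

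These 4 were the listed genes among 17 of the integrated and ER stress list with counts (23.5%, against 3.76% of all genes). Over the 17 genes 7 were higher and 10 lower, with a median log2 change of -0.04, which was -0.16 without the first eugenol library and 0.09 without the second. Ddit3, the death-linked transcription factor of this response, changed by -0.04, its upstream factor Atf4 by -0.06, and Xbp1, a transcription factor of the ER response, by -0.05. The full ER stress element stood in 3 of the 4 listed genes' promoters and in 10 of 5380 promoters of measured genes (0.186%). Of these 10 genes Hspa5, Calr and Creld2 were listed, and the log2 changes of the other 7 ran from -0.19 in Ankmy2 to 0.21 in Zfand2a, with Xbp1 among them.

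Contractile and cytoskeletal genes on the list were mostly lower. Myh7, the slow myosin heavy chain, had 5748 and 6434 RPM with DMSO and 5388 and 5117 RPM with eugenol, and Actc1, cardiac actin, had 7593 and 7259 against 6891 and 6180 RPM. Des, the intermediate filament desmin, had 2421 and 2415 against 2116 and 2109 RPM, and Tpm1, tropomyosin, had 2349 and 2196 against 2097 and 1950 RPM. All 4 genes were lower in both eugenol libraries, with log2 changes between -0.20 and -0.16 and an adjusted p of 1 in the authors' deposited table. In normoxia Myh7 was at 4155 and 5034 RPM with DMSO and 5958 and 6183 RPM with eugenol, the opposite direction. The difference of its effects was -0.62 with an adjusted p of 0.343 by the edgeR interaction test, and by DESeq2's Wald test it passed.

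Of the 20 sarcomere genes with ischemia counts, 4 were listed, all lower, where 3.76% of all genes with ischemia counts were listed. Over the 20 genes 16 were lower and 4 higher, and the libraries of the groups did not overlap in 10 of the lower and in none of the higher genes, where 17.5% of all genes were lower and 13.3% higher without overlap. The median log2 change was -0.12 and ran from -0.12 to -0.10 across the scalings and left-out libraries. Myh6, the fast myosin heavy chain, was not listed, with 5637 and 7104 against 5978 and 4868 RPM and overlapping groups. The summed cardiomyocyte markers, of which 7 of 10 are on the sarcomere list too, were lower in both eugenol libraries, and their part in these values was not tested. Among listed genes outside the gene lists, named after their values were seen, the cytoplasmic actins Actb (963.6 and 925.8 against 831.8 and 846.3 RPM) and Actg1 (597.7 and 562.6 against 527.1 and 469.1 RPM) were lower.

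**Figure D4:**
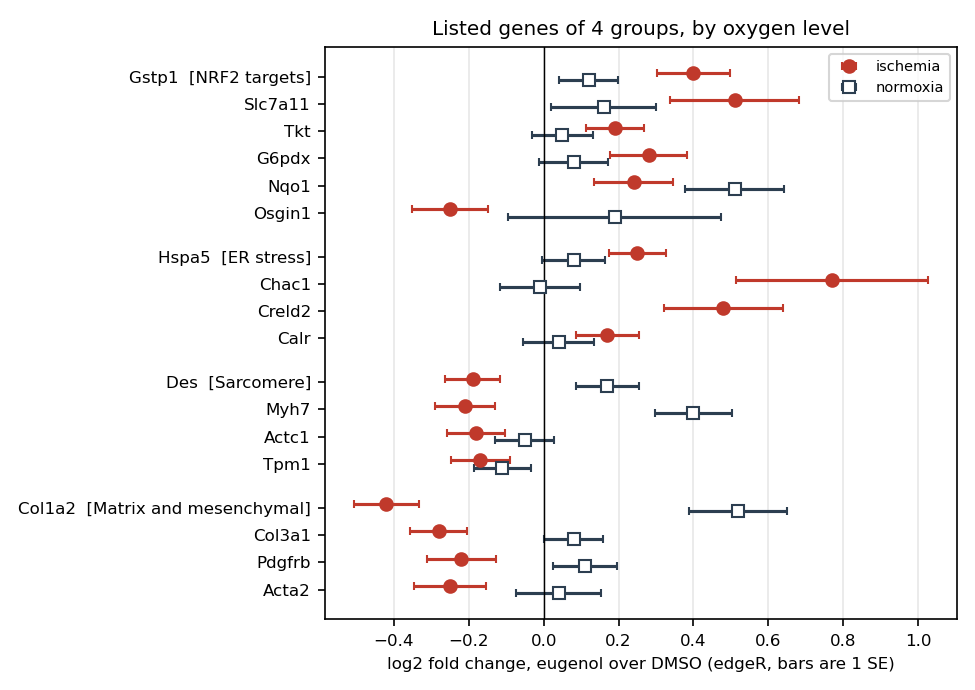
Log2 fold change of eugenol over DMSO (edgeR, bars are 1 SE, 2 libraries a group) of 18 listed genes in 4 groups, with filled circles for ischemia and open squares for normoxia. The ischemia values of sarcomere and matrix genes lie left of 0 and those of ER chaperones right of 0; Creld2 has no normoxia value, and Col1a2 and Myh7 lie on opposite sides in the 2 oxygen levels.

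None of 21 measured HIF targets was among the 270 genes, and 17 were lower and 4 higher with a median log2 change of -0.08, and the groups did not overlap in 9 of the lower and 0 of the higher, where 17.5% of all genes with ischemia counts stood apart in the lower direction. Vegfa, the main angiogenic growth factor, had 3361 and 3929 RPM with DMSO and 4173 and 3621 RPM with eugenol, and Ndrg1, a stress-responsive HIF target, had 397.1 and 378.3 against 357.4 and 334.1 RPM. The list's median was -0.13 without the first eugenol library and -0.01 without the second, where 11 of the 21 were lower. Eno2, a glycolytic enolase, was the 1 listed gene of 17 in glycolysis, with 36.7 and 27.8 against 26.5 and 20.8 RPM. Ogdh, the core of the oxoglutarate dehydrogenase complex, was the 1 of 19 in the citric acid cycle, with 113.3 and 106.7 against 98.1 and 89.0 RPM.

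Several lists held no listed gene, which at 3.76% of all genes lists of this size may do. None was listed of 25 genes of oxidative phosphorylation, 18 of cholesterol synthesis, 21 of the cell cycle, 13 cytosolic ribosomal proteins, 14 of inflammation, 7 of the interferon response, 8 heat shock genes, 5 of apoptosis and 10 natriuretic peptide and cardiac stress genes. Nppa, the atrial natriuretic peptide, had 12300 and 11540 against 11360 and 10950 RPM. Of 20 measured acetylation enzymes and readers only Hdac6, a cytoplasmic tubulin deacetylase, was listed, with 238 and 103 reads with DMSO and 112 and 73 reads with eugenol, so its groups overlapped. Ep300, the acetyltransferase p300, stood at 38.2 and 39.0 against 39.2 and 43.0 RPM.

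Eugenol also acts on sensory TRP channels. None of 4 TRP genes with counts was listed, and Trpv1, the capsaicin receptor, was near the floor at 3.33 and 2.32 RPM with DMSO and 2.37 and 2.51 RPM with eugenol. Hcn4, the pacemaker channel, was the 1 listed gene of 17 in calcium handling and ion channels, with 26.0 and 24.5 against 17.4 and 21.4 RPM. Tfeb, a regulator of lysosomes, was the 1 of 11 in autophagy, with 1774 and 1526 against 1425 and 1227 reads. Kdr, the endothelial VEGF receptor, was listed higher at 5.75 and 7.78 against 7.18 and 16.2 RPM, with overlapping groups; of the 7 endothelial markers with counts 4 were lower and 3 higher, with a median log2 change of -0.13. Lyz2, lysozyme of macrophages, was listed lower at 13.9 and 12.6 against 8.68 and 9.28 RPM. Of the 10 macrophage markers with counts 9 were lower, but 5 without the second DMSO library and 6 with the first or the second eugenol library left out, and the groups were apart in 1 of the 10.

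The normoxia libraries share nothing with the libraries that chose these genes. Of the 270 genes, 151 had counts in all 4 normoxia libraries. The eugenol effect had the same direction as under ischemia in 83 of the 151 (55.0%), and in 53.8% of all 6582 genes with counts in all 8 libraries. Because listing in the normoxia eugenol table is 1 way to have counts, 113 genes with normoxia counts through both oxygen tables were also compared with the 6515 genes of that kind: 56.6% and 53.8% had the same direction, 37.2% and 33.8% had normoxia groups that did not overlap, and 17.7% (20 genes) and 3.24% had an unadjusted p under 0.05 by edgeR in normoxia. Over all 6998 genes of the normoxia fit these last shares were 34.1% and 4.76%. In the normoxia fit 14 of 6998 genes (0.2%) passed an adjusted p of 0.05 by edgeR with Benjamini-Hochberg adjustment, and 3 of these are listed genes: Alkbh6, Tmco3 and LOC100911615. Each of the 3 had the opposite direction in the 2 oxygen levels. The number of listed genes called was 0 with a mean of at least 5 RPM required, since none of the 3 reached it. The calls of Tmco3 and LOC100911615 were lost when either normoxia eugenol library was left out. That of Alkbh6 was lost without the first. All 3 calls stayed without either normoxia DMSO library. Each of these fits leaves 1 library in a group.

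Alkbh6, a member of the AlkB family of dioxygenases, had 19 and 37 reads with DMSO and 4 and 5 with eugenol under ischemia. In normoxia the same gene had 3 and 4 reads with DMSO and 91 and 46 with eugenol. The log2 changes were -2.58 ± 0.597 under ischemia and 4.35 in normoxia (adjusted p 0.0173 by edgeR in normoxia). Alkbh6 was the 1 gene of 6582 (0.0152%) that passed the edgeR interaction test, with a difference of -6.92 and an adjusted p of 0.0122, while 3.59% of genes had an unadjusted p under 0.05; this test contains the contrast that listed the gene. The call was lost without the second ischemia DMSO library and without the second ischemia eugenol library, each of which left 0 listed genes called. Alkbh6 is the neighbour of Clip3 on chromosome 1, and the 2 genes span 21.8 kb in the files' coordinates.

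Tmco3 had 10 and 9 against 11 and 100 reads under ischemia, and 95 and 140 against 8 and 15 in normoxia (normoxia log2 change -3.23, adjusted p 0.0173 by edgeR). LOC100911615, which the files describe as like patatin-like phospholipase domain-containing protein 2, had 38 and 146 against 33 and 41 reads under ischemia and 16 and 10 against 95 and 69 in normoxia (2.76, adjusted p 0.0233 by edgeR). Neither passed the edgeR interaction test, with adjusted p-values of 0.143 and 0.145. By DESeq2's Wald test of the interaction LOC100911615 passed and Tmco3 did not. LOC100911994, described as like coiled-coil domain-containing protein 132, was lower at both oxygen levels, with 72 and 86 against 19 and 7 reads under ischemia and 68 and 53 against 1 and 7 in normoxia; its entry pairs with Ccdc132, which had 342 and 414 reads in the ischemia eugenol libraries. In the authors' own tables, 27 of the 270 genes were also listed for eugenol in normoxia. The normoxia list held 207 genes, 1.44% of 14362. The adjusted test was passed in both by 2 genes, where 0.181% of the 14362 genes passed it in normoxia. These 2 were LOC100911994, lower at both levels, and Col1a2, with opposite directions. Col1a2 had a log2 fold change of -0.41 under ischemia and 0.52 in normoxia (normoxia adjusted p 0.0146 in the authors' deposited table). A listing at both levels thus does not mean the same direction.

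**Figure D5:**
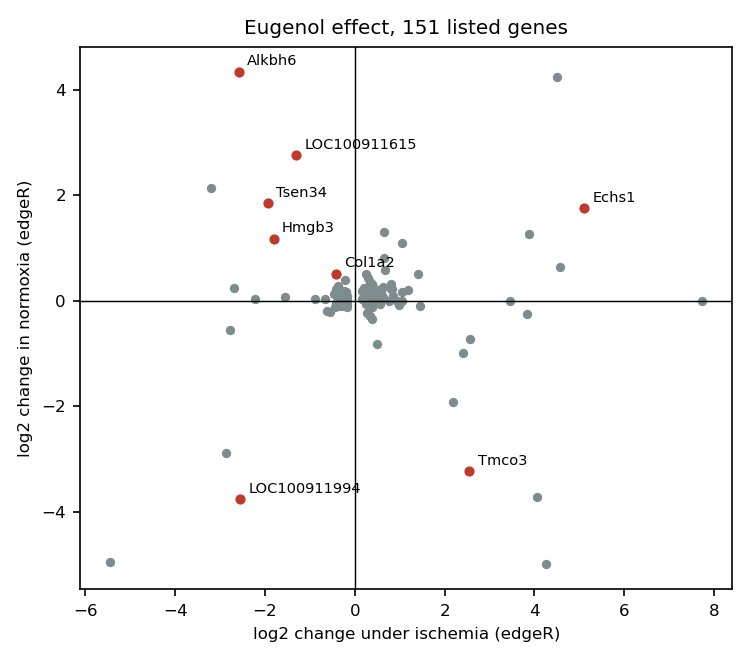
Log2 fold change of eugenol over DMSO by edgeR under ischemia (horizontal axis) and in normoxia (vertical axis) for the 151 listed genes with counts in all 8 libraries; red points are labelled genes described in the text. Most genes lie within 1 unit of 0 in normoxia, and Alkbh6, LOC100911615 and Tmco3 lie in the quadrants of opposite direction.

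Levels of the listed genes also differed with oxygen in the control dishes. In the authors' deposited table of ischemia against normoxia with DMSO, 144 of the 270 genes passed the adjusted test, 59 higher and 85 lower under ischemia, where 40.9% of the 16406 genes of that table's adjustment passed, 3231 higher (19.7%) and 3482 lower (21.2%). That table shares the ischemia DMSO libraries with the eugenol comparison, so the values are given side by side only. Gstp1 was higher under ischemia by a log2 of 1.85, Nqo1 by 1.64, Tkt by 1.47, Akr1b8 by 2.94 and Osgin1 by 4.79. Col3a1 was lower by a log2 change of -1.14, Eln by -1.47, Actc1 by -1.43 and Acta2 by -3.44. Col1a2 changed by -0.40 and Myh7 by 0.40.

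Some listed genes lie next to each other. In the files' coordinates, whose genome build is not given in the sources used here, 27 of the 270 genes fell into 12 groups with starts within 50 kb of the next. The directions within groups were mixed. In the group of LOC100911519, LOC100911615, LOC100911730 and LOC681193 on chromosome 1, the first 2 were lower and the other 2 higher, and LOC100911730, described as CD151 antigen-like, had 67 and 68 against 76 and 1558 reads.

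The edge of the list depended on the test. Just inside it were Hcn4, Tmeff2 and Epha3, with unadjusted p-values of 0.0492, 0.0494 and 0.0496 in the authors' deposited table. Of the 369 genes (5.14% of 7176) with an unadjusted p under 0.05 in the edgeR refit, 106 were outside the list. Their p-values in the authors' test are not given, so their distance from the edge is unknown. Some of the smallest edgeR p-values there were those of Mif, a cytokine (56.9 against 8.79 RPM on average, p 0.00531 by edgeR), and Rrad, a small GTPase that restrains calcium channels (58.6 against 101.2 RPM on average, p 0.00973 by edgeR). Xirp1, an actin-binding protein of the intercalated disc, had 56.5 and 61.1 against 64.6 and 146.9 RPM (p 0.00701 by edgeR). Its second eugenol library was far above the first.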

How the data were processed

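Read counts per gene and library were deposited by the authors. The tools in the submitters' processing notes are StringTie 1.3.3b, HISAT2, DESeq2 and edgeR, with no role stated. The deposited normalized signal is the count over 1 size factor per library and table. FPKM values were deposited by the authors, and their ratio to the counts gave the library totals used for RPM. The log2 fold changes, p-values and adjusted p-values are the authors' own. Genome build and strand setting are not given in the sources used here. Column codes were tied to groups by the table titles, and the number in a code was taken as that in the sample's title.

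Counts were joined over the 5 tables, so a gene has counts for a library only where a table lists it. edgeR 4.0.16 (quasi-likelihood, R 4.3.3, limma 3.58.1) was fitted to 7176 genes in ischemia, 6998 in normoxia and 6582 in all 8 libraries, with Benjamini-Hochberg adjustment, and tested on simulated data. Alternatives were TMM, DESeq2 1.42.0 size factors and Wald test, a mean of 5 RPM, a replicate term, all 8 libraries, other adjustments and left-out libraries. Python 3.11.15, pandas 2.3.3, NumPy 2.4.6 and Matplotlib 3.10.9 were used.

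The genes and the 30 lists (532 symbols: 398 found by name, 9 by a RefSeq synonym, 125 in no table) were chosen with earlier results of these data known. Named are the 23 called genes, the 10 largest rises and falls with a symbol, no overlap and at least 5 RPM, up to 3 listed genes per list, 10 genes always named (9 with counts; Trpa1 is not analysed here), and genes called in normoxia or the interaction; the text prints a selection. Calr, G6pdx, Osgin1 and Tpm1 (further listed members of their lists), genes outside the lists, copies, neighbours, genes at 0 in 1 group and genes at the edge of the table were added after their values were seen. Same-numbered libraries did not deviate together: r over genes was -0.03 in ischemia and -0.17 in normoxia. Counts of libraries within a group had a chi-square of 6.94 to 14.7 per degree of freedom, where sampling noise alone gives 1.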

Additional observations from a re-analysis of the deposited data

Results flagged for a closer look

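Alkbh6 had a eugenol effect that differed between ischemia and normoxia by -6.92 on the log2 scale (adjusted p 0.0122, edgeR interaction test with Benjamini-Hochberg adjustment), with both ischemia eugenol libraries lower than both DMSO libraries and both normoxia eugenol libraries higher. The test rests on 3 to 91 reads per library.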

How the results depend on the processing

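The 23 calls of the authors became 19 at an adjusted p under 0.01 and 25 at 0.1. They became 19 with at least 2-fold by the rounded log2 values, and 18 with a mean of 5 RPM. The rounding counts AABR07028886.3, at 1.994-fold, as 2-fold. For the ischemia edgeR refit (11 calls), DESeq2's Wald test gave 23, adjustment over the genes fitted 21, a mean of 5 RPM 7, the replicate block 29, TMM factors 12, DESeq2 size factors 11 and, as an alternative added after seeing the data, copies summed 8; the fit of all 8 libraries gave 1, with 3 of the 11 genes in it. Leaving out 1 library gave 31 to 257 calls. For listed genes called in normoxia (3), the counts were 10 by Wald test, 18 with the replicate block, 19 with a crossed replicate block added after seeing the data, 0 at 5 RPM, 1 in the fit of all 8 libraries and 1 to 16 without 1 library. For the interaction (1), they were 5 by Wald test, 2 with the replicate block, 0 at 5 RPM and 0 to 7 without 1 library. For the named genes' changes, 644 of the alternatives' values kept their side of the threshold, 99 newly passed, 15 no longer passed, and none reversed; the cause was not tested. Same-numbered libraries share only a number. Genes of few reads and 2 libraries a group limit what these counts can show.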
